A study of Mus musculus with 4 samples.

Results

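Early supporting cells at E11.5 were taken here as the cells of 1 mouse XX gonad library that carry several early supporting markers, hold at most 1 of 6 germ cell genes, and are not dominated by mesothelial or interstitial markers. They numbered 2164 of the 4916 cells at E11.5, or 44% (exact Clopper-Pearson 95% interval 42.6 to 45.4%), and 2164 of the 19387 cells in all. The series holds 4 libraries of single gonad cells from C57BL/6 XX embryos, 1 for each day from E11.5 to E14.5, prepared with version 2 of 10x Chromium 3′ chemistry. No embryo carried a transgene or received a treatment, as far as the labels say, and the labels do not give how many embryos or gonads went into a library.

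The members were chosen by expression itself. A cell was a member if at least 3 of Fst, Wnt4, Wnt6, Irx3 and Runx1 were above 0, if at most 1 of Dazl, Ddx4, Dnd1, Mael, Dppa5a and Mov10l1 was above 0, and if the mean of the first 5 genes exceeded the mean of 5 mesothelial genes (Upk3b, Krt19, Krt7, Upk1b, Tm4sf5) and of 5 interstitial genes (Col1a1, Col1a2, Acta2, Mfap4, Tcf21). Their comparison with other cells of the same library is therefore a description, with no test. With 1 library per stage there is also no replicate, so every interval given covers counting error only, and a stage cannot be told apart from its library.

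Supporting cells are the somatic lineage that encloses the germ cells. In the XX gonad they become pre-granulosa cells under WNT and R-spondin signalling, and in the XY gonad they become Sertoli cells once Sry acts. They descend from the coelomic epithelium, which covers the gonad, and at E11.5 they have only begun to take their fate. Leaving the cell cycle is a known feature of the early lineage.

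Levels are given as the UMIs (unique molecules) of a gene summed over a group and scaled to 1000000 UMIs of that group, written CPM. The members were compared with 2280 other somatic cells of the library, which had at most 1 germ cell gene and at most 5% of their UMIs from globin genes. Among these, 667 were mesothelial-type, 495 interstitial-type (at least 3 of the 5 genes above 0 and their mean the highest) and 1118 neither. A gene was called higher or lower where it had at least 50 UMIs over both groups, at least 20 CPM in the higher group, a ratio of at least 2 and exact Poisson 95% intervals that did not overlap. The median member had 13935.5 UMIs and 3593.5 genes, close to 13748.5 UMIs in the other somatic cells, and its mitochondrial share was 3.99% against 3.28%. Called doublets made up 3.51% of members (76 cells) and 1.27% of the others. Of the members, 43 carry a barcode that another library also holds, and 2163 of 2164 had a UMI of Xist, the RNA of the inactive X chromosome.

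The 5 genes of the rule differed in how evenly they were spread over the members. Wnt6, a WNT ligand, had a UMI in 99.4% of members and stood at 580 CPM. Wnt4, a WNT ligand required for ovary development, had a UMI in 94.5% of them and stood at 298 CPM. Fst, which encodes the activin-binding protein follistatin, was at 275 CPM with a UMI in 79% of members, and Runx1, a transcription factor of the early supporting lineage, was at 108 CPM with a UMI in 75.5%. Irx3, an Iroquois homeobox factor, was the least frequent, at 64.5 CPM with a UMI in 36.4%. A UMI of Irx3 was as frequent in endothelial cells, at 20% of thinned cells against 21.1% of thinned members. The same genes stood at 89.5, 46.2, 7.03, 13.2 and 8.48 CPM in the other somatic cells, in the order Wnt6, Wnt4, Fst, Runx1 and Irx3. Of the members, 740 had 3 of the 5 genes, 1013 had 4 and 411 had all 5. Just outside the rule stood 370 cells with exactly 2 of the genes: Fst was at 23.8 CPM and Cpa1 at 124 CPM there, against 136 and 218 CPM in the members with exactly 3. Those with at most 5% globin are counted among the other somatic cells, of neither type, in every comparison with that group.

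Cpa1 and Sprr2d, 2 marker genes that the rule did not use, were also higher in members. They were named as markers with earlier results of these data known, so their levels are no independent check of the label. Cpa1, which encodes the digestive protease carboxypeptidase A1, was at 269 CPM in members, 31 CPM in the other somatic cells, 7.5 CPM in the mesothelial-type and 16.8 CPM in the interstitial-type cells. The ratio of members to other somatic cells was 3.12 on the log2 scale (95% interval 3.03 to 3.21). Sprr2d, a small proline-rich protein of the kind found in cornified epithelia, was at 92.1 CPM in members and at 7.87, 1.07 and 1.34 CPM in the same 3 groups, with a log2 ratio to other somatic cells of 3.55 (3.37 to 3.73). The other somatic cells include the cells just outside the rule, where Cpa1 was at 124 CPM and Sprr2d at 34.7 CPM, which raises the level of both in that group. Near-identical Sprr2 copies exist, and how the counting divided reads among them is not given in the sources used here. Asking for at least 4 marker genes, which moves the members with 3 into the comparison cells, gave a log2 ratio of 1.96 for Cpa1 and a ratio lower by 1.55 for Sprr2d. Under that setting 29 of the 39 named genes called higher and examined had a ratio lower by over 1.5 times, and 5 of the 39 were below 2-fold. Tgm3 went from 3.51 to 2.03 on the log2 scale, Cyp11a1 from 3.36 to 1.78, Akr1cl from 3.13 to 1.85 and Inha from 2.62 to 1.62. At this depth each gene was found in a minority of members. With every cell thinned to 5000 UMIs, Cpa1 had a UMI in 30.3% of members (28.3 to 32.3%) and in 1.82% of endothelial and 3.49% of erythroid cells, types that should lack it, 2.85% of mesothelial-type and 6.26% of interstitial-type cells, while Sprr2d had one in 11% of members (9.71 to 12.4%) and in 0.9% of mesothelial-type cells. Without thinning the shares of members were 43.9% and 15%, at median depths of 13935.5 UMIs in members, 16758 in endothelial and 15676 in mesothelial-type cells. Both were found together in 4.99% of thinned members (4.11 to 5.99%), where the product of the separate shares is 3.33%.

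The 250 bases before the start of Cpa1 and Sprr2d are shown because these are the markers that stand outside the rule. Those before Klk1, a kallikrein protease gene, are shown because it was the only one of the 10 genes highest in members whose listed window held the motif of NR5A1, a factor that the gonadal primordium needs. Sequences are from RefSeq on GRCm38.p6, plus strand, 5′ to 3′, with motif matches in capitals. They lie on chr6:30638968-30639217 for Cpa1, chr3:92338890-92339139 for Sprr2d and chr7:44225110-44225359 for Klk1, each just upstream of the gene.
Cpa1: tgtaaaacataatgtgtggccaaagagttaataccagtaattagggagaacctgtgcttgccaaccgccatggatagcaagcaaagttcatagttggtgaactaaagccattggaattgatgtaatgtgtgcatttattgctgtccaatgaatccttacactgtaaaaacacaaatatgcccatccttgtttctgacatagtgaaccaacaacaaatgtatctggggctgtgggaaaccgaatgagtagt
Sprr2d: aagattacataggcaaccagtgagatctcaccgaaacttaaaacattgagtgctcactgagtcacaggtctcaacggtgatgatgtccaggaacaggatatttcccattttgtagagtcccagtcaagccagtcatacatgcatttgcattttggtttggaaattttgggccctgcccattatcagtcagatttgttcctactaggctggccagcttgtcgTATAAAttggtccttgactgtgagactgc
Klk1: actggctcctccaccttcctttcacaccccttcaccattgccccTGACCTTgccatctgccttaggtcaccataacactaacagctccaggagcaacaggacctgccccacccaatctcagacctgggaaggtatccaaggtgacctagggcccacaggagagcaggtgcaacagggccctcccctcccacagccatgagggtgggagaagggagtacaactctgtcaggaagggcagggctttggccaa
The capitals mark TATAAA, the TATA box, 29 bases before the Sprr2d start, and TGACCTT, the NR5A1 motif AAGGTCA on the other strand, 206 bases before the Klk1 start. Cpa1 held neither of these, nor the GATA motif AGATAA, nor the TCF/LEF motif CTTTGAT, on either strand. Of the 10 genes highest in members, 7 had a listed window. TATAAA was in 3 of the 7 (Sprr2d, Taf7l and Tgm3) and in 12.4% of all 32851 windows of that length, AAGGTCA in 1 of the 7 and in 4.08% of all, AGATAA in 0 of the 7 and in 9.99% of all, and CTTTGAT in 0 of the 7 and in 3.21% of all. Matches on either strand count. A gene counts if any of its listed windows held the motif, while the percents count single windows, so they are not on the same measure. The motifs can share bases, and a match is a match of letters only.

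**Figure D1:**
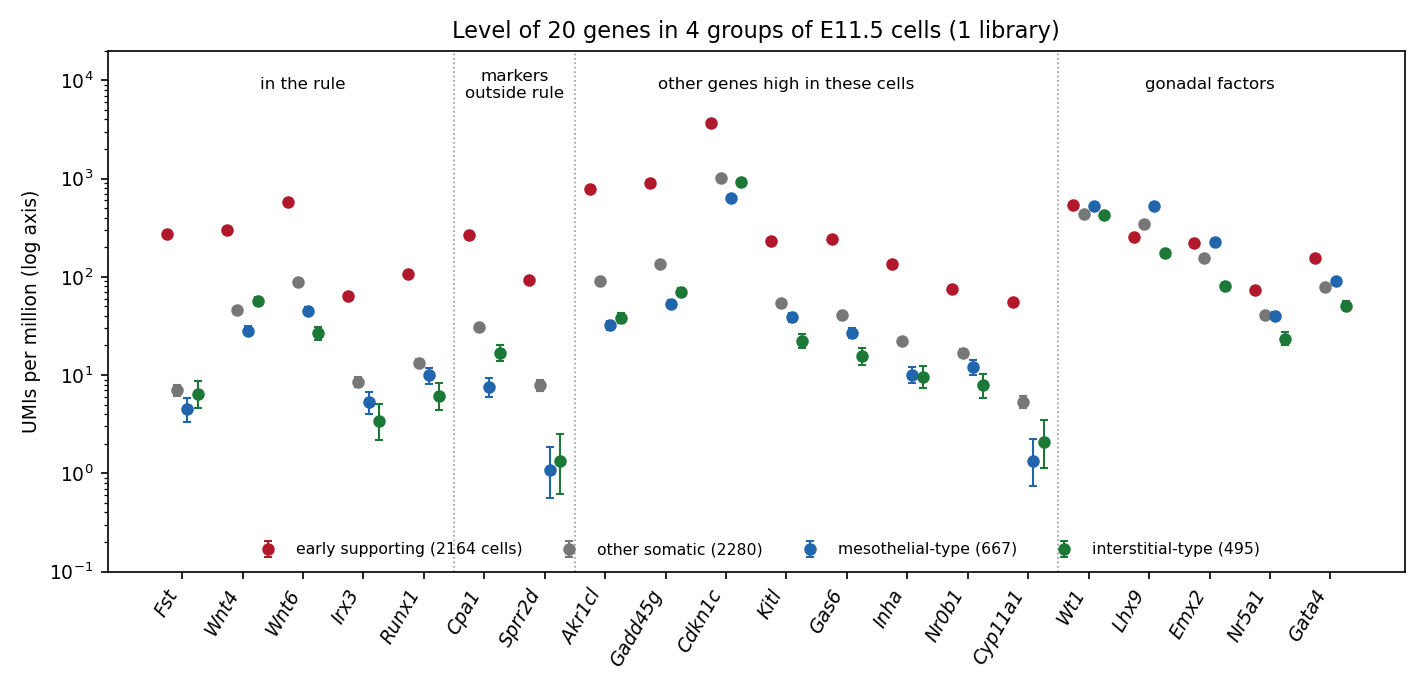
Level of 20 genes (vertical axis, CPM, log scale) in the 2164 early supporting cells and in the other somatic, mesothelial-type and interstitial-type cells of the E11.5 library, with exact Poisson 95% intervals as bars. Cpa1 and Sprr2d, outside the rule, stand at 269 and 92.1 CPM in the early supporting cells and at 31 and 7.87 CPM in the other somatic cells, while Wt1, at 539 and 433 CPM, lies close together in all 4 groups.

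Against the other somatic cells, 462 of 5978 tested genes were called higher in members (7.73%) and 472 lower (7.9%), with a median log2 ratio over all tested genes of -0.06. The 21 genes of the rule are left out of these counts. Among the 10 genes with the highest ratio were Ccdc182, Rhox8, Col12a1, Taf7l, Sprr2d, Tgm3, Adam8, Klk1 and Chst4. Ccdc182, a little-studied coiled-coil gene, was at 116 against 6.65 CPM. Rhox8, a homeobox gene of the reproductive cluster on the X chromosome, was at 55.4 against 4.39 CPM, and Adam8, a membrane metalloprotease, was at 143 against 12.7 CPM. Tgm3, a transglutaminase that cross-links proteins, was at 113 against 9.88 CPM and had a UMI in 30.7% of thinned members. Akr1cl, an aldo-keto reductase gene chosen after its values were seen, was more abundant than any of these, at 790 against 90.3 CPM, and had a UMI in 85% of thinned members.

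The 10 genes with the lowest ratio were Stfa1, S100a8, BC100530, S100a9, Camp, Lyz2, Icam2, C1qb, Cldn5 and Ecscr. They are genes of neutrophils and macrophages or of endothelium: S100a8, a neutrophil protein, was at 1.84 CPM in members and 161 CPM in the other somatic cells, and Cldn5, a tight-junction protein of endothelium, was at 3.16 and 70.4 CPM. With endothelial and immune cells taken out of the other somatic cells, the log2 ratio of S100a8 moved from -6.45 to 0.02 and that of Cldn5 from -4.48 to 1.00, so both rest on those cells. Markers of several other types were low in members: of 8 endothelial markers 6 were tested and 6 were called lower, of 8 immune markers 4 were tested and 4 were called lower, and of 12 interstitial markers outside the rule 5 were tested and 5 were called lower. Their summed levels were 43.8 CPM in members against 312 CPM for the endothelial, 12.1 against 189 CPM for the immune and 126 against 518 CPM for the interstitial list. The other somatic cells include endothelial and immune cells. Against each of the mesothelial-type and interstitial-type cells, 1 of 2 tested endothelial markers, Kdr, was called lower and 0 immune markers were tested. The immune sum was 40.6 CPM in the mesothelial-type and 4.9 CPM in the interstitial-type cells. Of 6 perivascular markers 1 was tested and called lower, of 8 rete and supporting-like markers 2 of 3 tested were called lower, and of 6 mesothelial markers outside the rule 1 of 2 tested was called lower. Summed levels were 9.69 against 41.9 CPM for the perivascular list, 139 against 149 CPM for the rete list and 571 against 584 CPM for the mesothelial list. Wt1 made up most of the mesothelial sum in both groups, and Krt8 most of the rete sum in members, so these sums say little about the other genes. Against the mesothelial-type cells, 3 of 4 tested genes of the same mesothelial list were called lower. The 6 neural and 8 other germ cell markers had 0 genes past the minimum, with summed levels of 5.58 against 20.2 CPM and 12.4 against 15.7 CPM.

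**Figure D2:**
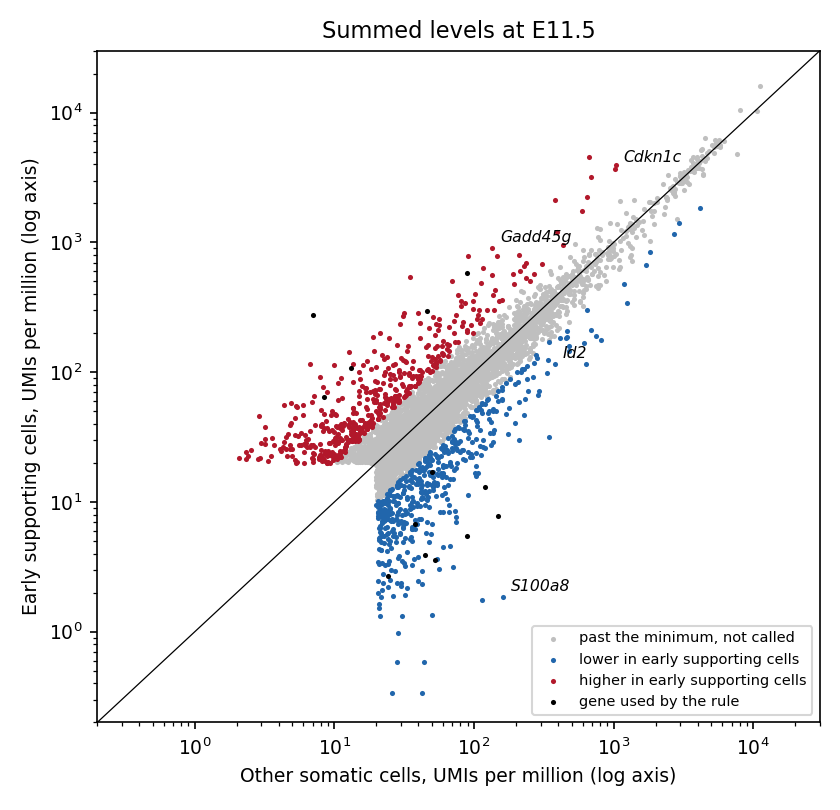
Summed level of each tested gene in the early supporting cells (vertical axis, CPM, log scale) against the other somatic cells of the E11.5 library (horizontal axis, CPM, log scale), with the line of equal level. Red points are the 462 genes called higher, blue points the 472 called lower, grey points genes not called, and black points genes of the rule, and Gadd45g and Cdkn1c stand well above the line.

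Several factors that build the early gonad were within 2-fold of the other somatic cells, and others differed. Of 23 gonadal factor genes 16 were tested, 4 were called higher in members and 4 lower, with a median log2 ratio of 0.42. Wt1, a zinc finger factor needed for gonad formation, was at 539 CPM in members and 433 CPM in the other somatic cells. Emx2, a homeobox factor of the coelomic epithelium, was at 222 and 155 CPM, and Nr5a1, which encodes steroidogenic factor 1, at 73.7 and 41 CPM. Gata4 was at 156 and 78.6 CPM, a log2 ratio of 0.99 (0.92 to 1.05) that lies at the edge of the call. Lhx9, a LIM homeobox factor of the gonadal surface, went the other way without being called: it was at 257 CPM in members and 348 CPM in the other somatic cells, with 530 CPM in the mesothelial-type cells. Against the interstitial-type cells 15 of 17 tested factor genes were called, 8 higher, with Nr5a1, Gata4 and Emx2 among them, and 7 lower. Against the mesothelial-type cells 4 of 16 were called higher and 4 lower, and Lhx9 was among those lower.

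The 4 gonadal factor genes called higher were Gadd45g, Nr0b1, Cited2 and Numb. Gadd45g, a stress-response gene that XY gonads need to switch on Sry in time, was at 908 CPM in members against 135 CPM, and had a UMI in 86.4% of thinned members and 26.7% of endothelial cells. Nr0b1, which encodes the nuclear receptor DAX1, was at 75.6 against 16.9 CPM, and Cited2, a transcriptional co-factor that acts with WT1 and NR5A1 in the early gonad, at 133 against 46.8 CPM. Numb, a regulator of NOTCH and of asymmetric division, was at 31.6 against 14.7 CPM. Among those called lower were Nr2f2 (60.9 against 159 CPM), Cbx2 and, from the rule, Tcf21. Nr2f2 marks interstitial cells, and it stood at 330 CPM in the interstitial-type cells.

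Genes of the ovarian programme were already higher in part. Of 20 ovary and pre-granulosa genes 12 were tested, 7 were called higher (among them Rspo1, Bmp2, Kitl, Cdkn1b, Gng13 and Dmrt1) and Gpc3, a proteoglycan gene, was called lower, with a median log2 ratio of 1.16. Rspo1, the R-spondin that raises WNT signalling in the ovary, was at 113 CPM in members and 50.9 CPM in the other somatic cells. Against the mesothelial-type cells Rspo1 was not called, and it had a UMI in 39% of thinned members and 31.3% of thinned mesothelial-type cells. Bmp2, a BMP ligand of later pre-granulosa cells, was at 59 CPM in members and 26.4 CPM in the other somatic cells. Dmrt1, a factor better known for holding the male fate of Sertoli cells, was at 30 and 6.22 CPM. Foxl2, the factor that marks pre-granulosa cells later on, was nearly absent: 4 of 2164 members had a UMI, 4 UMIs in all. Of the 15 testis and Sertoli genes 14 were in the table, 2 passed the minimum, and Cst9, a cystatin gene seen early in the Sertoli lineage, was called higher, at 59.1 against 6.97 CPM. Sox9, the factor that directs Sertoli differentiation, was at 14.7 and 10.8 CPM, below the minimum, and Amh, the Müllerian-inhibiting hormone, at 0.429 and 0.349 CPM.

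No WNT target gene was called higher in members than in the other somatic cells. Among 7 WNT ligands 4 were tested: Wnt4 and Wnt6, which the rule used, were higher, and Wnt5a, a ligand of the mesenchyme, was lower at 11.4 against 59.2 CPM. Of 15 WNT targets and inhibitors 5 were tested, 0 were called higher and 2 lower, with a median log2 ratio of -0.80. Nkd1, a feedback inhibitor that WNT signalling induces, was at 29.5 CPM in members and 79.2 CPM in the other somatic cells. Sfrp1, a secreted WNT inhibitor, stood at a log2 ratio of -2.28. Axin2, the usual readout of canonical signalling, was at 15.1 and 26.3 CPM and was not called, with 41.7 CPM in the mesothelial-type cells. Against the mesothelial-type cells, 0 of 5 tested genes of this list were called higher and 4 lower, Axin2, Nkd1, Sp5 and Sfrp1. Against the interstitial-type cells, 2 of 5 tested were called higher, Lef1 and Sp5, and 3 lower, Nkd1 and the inhibitors Sfrp1 and Sfrp2.

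Genes of activin and BMP signalling were called in both directions. Of 12 ligand genes 5 were tested, with 3 higher and 2 lower. Inha, which encodes the inhibin α subunit, was called higher at 135 against 22 CPM, Inhbb, the activin βB subunit, at 38 against 15.1 CPM, and Bmp2 as above, while the transforming growth factors Tgfb1 and Tgfb2 were called lower. Neither Tgfb1 nor Tgfb2 passed the minimum against the mesothelial-type cells. Against the interstitial-type cells Tgfb2 was called lower and Tgfb1 was not. Of the 16 inhibitors and targets 8 were tested, with 2 higher and 2 lower. Fst, of the rule, and Msx1, a homeobox target of BMP signalling, were higher, Msx1 at 230 against 56 CPM. Id2, another BMP target, was called lower at 116 against 379 CPM, as was Fstl1. Of 11 receptor genes 3 were tested and 0 called, and Amhr2, the receptor for anti-Müllerian hormone, was at 363 and 199 CPM without passing the 2-fold limit.

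Of 15 genes that signal to germ cells or handle retinoic acid, 6 were tested, 2 were called higher and 4 lower, with a median log2 ratio of -1.77. Kitl, the ligand of the KIT receptor on germ cells, was at 234 CPM in members and 53.5 CPM in the other somatic cells and had a UMI in 64.2% of thinned members (24.8% of endothelial cells). Gas6, a ligand of the TAM receptors, was at 240 and 40.8 CPM. The chemokine Cxcl12, which draws germ cells to the gonad, was lower at 6.72 against 50.1 CPM and stood at 145 CPM in the interstitial-type cells. Aldh1a2, which makes retinoic acid, was lower at 26.9 against 110 CPM, as was Crabp2, which binds retinoic acid, at 19 against 62 CPM. The NOTCH list showed no call against the other somatic cells: 3 of its 17 genes were tested and 0 were called in either direction. Against the mesothelial-type and against the interstitial-type cells, 1 of 3 tested NOTCH genes, Hey1, was called higher in members.

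Cell cycle genes were lower in members than in the rest of the somatic cells. Of 20 genes of G2 and mitosis 19 were tested and 19 were called lower in members, with a median log2 ratio of -2.00 and a summed level of 598 CPM against 2210 CPM. Top2a, the topoisomerase of dividing cells, was at 47 against 227 CPM, and Cdk1, the kinase that drives mitosis, was at 52.7 against 178 CPM. Of 18 S phase genes 18 were tested, 10 were called lower and 0 higher. Rrm2, a subunit of the enzyme that makes deoxyribonucleotides, was at 40.5 against 197 CPM, and Pcna, the replication clamp, was at 62.3 against 158 CPM.

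Of 14 genes of G1 cyclins, their kinases and kinase inhibitors 10 were tested, 3 were called higher and 3 lower. The 3 higher genes were inhibitors of cyclin-dependent kinases. Cdkn1c, which encodes p57, was at 3712 CPM in members, 1025 CPM in the other somatic cells, 634 CPM in the mesothelial-type and 933 CPM in the interstitial-type cells. Cdkn1a, which encodes p21, was at 126 against 22.5 CPM, and Cdkn1b, which encodes p27, at 78.4 against 15.8 CPM. The cyclins of G1 and S were called lower for Ccnd1 (15.6 against 63.4 CPM), Ccne1 (10.9 against 33.3 CPM) and Ccne2 (7.91 against 21.1 CPM). Ccnd2, another D cyclin gene, was at 209 and 322 CPM and was not called. Cdkn2d, another inhibitor gene, was at 33 and 33.7 CPM and was not called either.

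Per cell, the 20 genes of G2 and mitosis gave at least 10 of 5000 thinned UMIs in 119 members, or 5.5% (4.58 to 6.54%). The share was 34.5% (32.6 to 36.5%) of the other somatic cells, 44.4% of the mesothelial-type and 33.1% of the interstitial-type cells. This count is a level of these genes in a cell, not a measured cell cycle phase, and 30 members lay near the limit, with 8 to 12 UMIs. In cells of the same rule it was 6.18% (5.22 to 7.27%) in the E12.5 library, 3.12% (2.37 to 4.04%) in the E13.5 library, an interval below that of the members, and 5.84% (4.2 to 7.87%) in the E14.5 library.

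**Figure D3:**
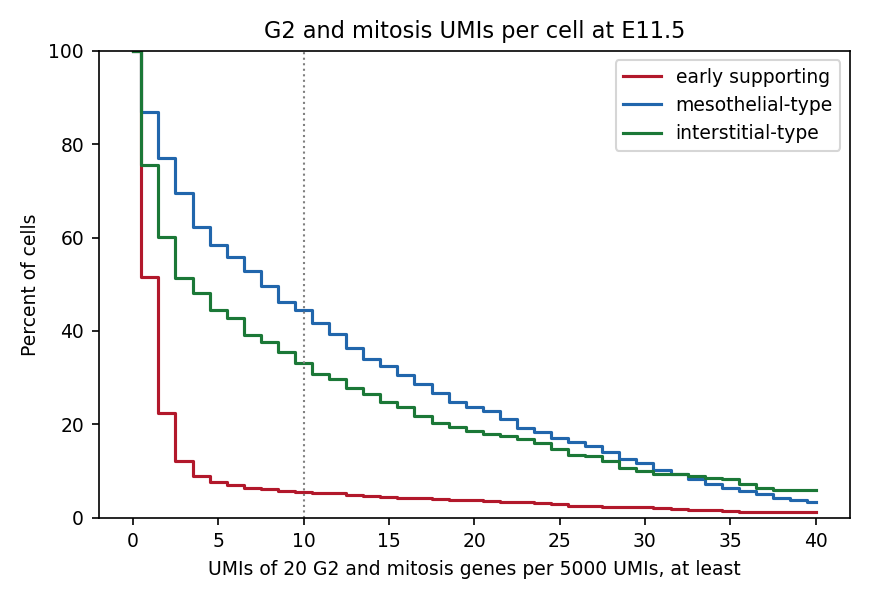
Percent of E11.5 cells (vertical axis) with at least the number of G2 and mitosis UMIs on the horizontal axis, out of 5000 UMIs per thinned cell, for early supporting, mesothelial-type and interstitial-type cells. The dotted line marks 10 UMIs, which 5.5%, 44.4% and 33.1% of the cells reach.

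The 119 members with many G2 and mitosis UMIs also differed from the others in their marker genes. Set beside the 1677 members with 0 or 1 such UMI, and on thinned counts, Fst was at 67.2 CPM (48 to 91.5) against 316 CPM (304 to 329). Cpa1 was at 80.7 CPM (59.5 to 107) against 302 CPM (290 to 314), and Sprr2d at 13.4 CPM (5.8 to 26.5) against 119 CPM (112 to 127). The inhibitor gene Cdkn1c was at 1975 against 3923 CPM, and Rspo1 at 40.3 against 119 CPM. The members with 2 to 9 UMIs lay between these for each of these 5 genes, with Fst at 229 CPM and Sprr2d at 63 CPM. Some gonadal factors lay in the same order over smaller differences: Emx2 was at 173 against 230 CPM and Gata4 at 111 against 159 CPM. Wt1 was at 486 CPM (431 to 545) against 556 CPM (540 to 572), with intervals that overlapped. Lhx9 ran the other way, at 361 against 234 CPM, and the intervals of Nr5a1 overlapped, at 84 CPM (62.4 to 111) against 75.7 CPM (70 to 81.9). The median depth before thinning was 19975 UMIs in the 119 cells and 13681 UMIs in the 1677, and Tm4sf5, a mesothelial gene of the rule, was at 25.2 against 3.46 CPM. The part of doublets and of depth in this difference was not tested.

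**Figure D4:**
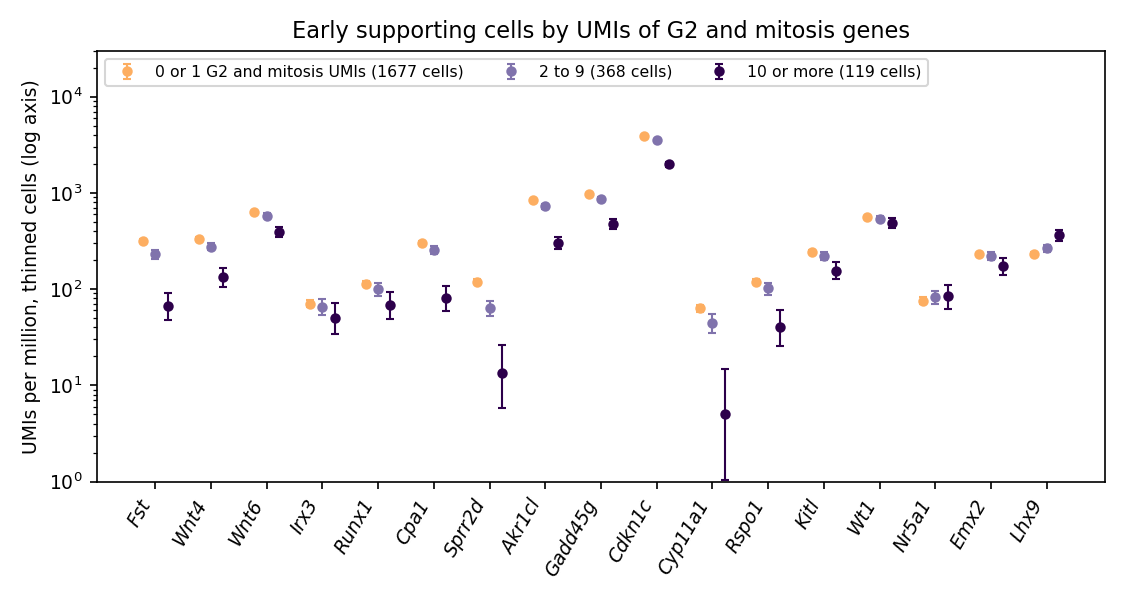
Level of 17 genes (vertical axis, CPM of thinned cells, log scale, with exact Poisson 95% intervals as bars) in early supporting cells with 0 or 1, 2 to 9, and 10 or more G2 and mitosis UMIs. Fst stands at 316, 229 and 67.2 CPM in the 3 groups, and Wt1 at 556, 538 and 486 CPM.

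Set against each neighbouring type, members had 619 of 5979 tested genes called higher (10.4%) and 534 lower (8.93%) relative to mesothelial-type cells, and 605 of 6196 higher (9.76%) and 672 lower (10.8%) relative to interstitial-type cells. The 2 comparisons share the members, so their values are given side by side. The 10 genes with the highest smaller ratio were Sprr2d, Ppbp, Tgm3, Klk1, Pf4, Rhox8, Chst4, Ctnna3, Cyp11a1 and Siglecg. Cyp11a1, which encodes the enzyme that begins steroid synthesis from cholesterol, was at 54.9 CPM in members, 1.34 CPM in mesothelial-type and 2.08 CPM in interstitial-type cells, with a UMI in 17% of thinned members (15.4 to 18.6%). It was the 1 gene called higher of 2 tested in a list of 8 steroidogenic genes, and the 1 called higher of 3 tested in a list of 6 adrenal cortex genes. Star, the cholesterol transporter, was at 3.99 CPM in members and 6.36 CPM in the other somatic cells, below the minimum, and Cyp17a1 was at 1.23 and 0.0871 CPM. Siglecg, a sialic acid-binding receptor gene, was at 54.1, 1.61 and 2.08 CPM in members, mesothelial-type and interstitial-type cells. Cpa1 and Cyp11a1 were found together in 8.09% of thinned members (6.97 to 9.32%), where the product of their shares is 5.13%.

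Pf4 and Ppbp, chemokine genes of platelets and megakaryocytes, rest on 1 cell, which was the highest for both genes. It held 3361 of the 3476 UMIs of Pf4 in members and 1126 of the 1148 UMIs of Ppbp. With members limited to those with at least 4 marker genes, the log2 ratio of Ppbp to the other somatic cells moved from 1.95 to -5.20, and that of Pf4, not called, from 1.00 to -5.56. 5 globin genes were called higher in members, and this rests on 6 members with over 5% of their UMIs from globin genes, which the rule keeps while the other somatic cells hold none. Hba-a1 was at 789 CPM in members and 146 CPM in the other somatic cells, and at 140 CPM in members without these 6 cells. Hbb-y, an embryonic globin gene, was at 2253 and 641 CPM, and at 654 CPM without them.

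The same rule picked 2216 cells (45.8%) of the E12.5 library, 1793 (37%) of the E13.5 library and 685 (14.3%) of the E14.5 library. Of 5796 genes tested between E12.5 and E11.5, 123 were called higher at E12.5 (2.12%) and 119 lower (2.05%), with a median log2 ratio of -0.09. Stage and library cannot be told apart here, and the median depth was 11802 UMIs at E12.5. Each value below is read with that limit, and a gene named as higher or lower passed the 2-fold rule between E12.5 and E11.5. The libraries also differed in the share of cells with a UMI of Xist. After thinning, this share was 99.6% in members and 93.9% (92.8 to 94.8%) in the E12.5 cells of the rule. In the later libraries, in order of stage, it was 99.8% and 99.9%. Why some E12.5 cells had no UMI of Xist, and their part in the differences below, was not tested.

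Both markers outside the rule were lower a day later. Over the 4 stages in order, Cpa1 was at 269, 38.7, 19.8 and 31.1 CPM, and Sprr2d was at 92.1, 12, 0.808 and 0.488 CPM. At E12.5, 10 cells held 59.5% of the Sprr2d UMIs, against 17.5% at E11.5. The 10 genes with the lowest ratio were Ppbp, Pf4, Pnliprp2, Klk1, Cyp11a1, Plac1, Tgm3, Aqp5, Spp1 and Siglecg. Apart from Ppbp and Pf4, which rest on the 1 cell above, these were also lower at each later stage than at E11.5: Cyp11a1 went from 54.9 to 5.06, 2.11 and 1.71 CPM, and Tgm3 from 113 to 10.8, 3.19 and 2.07 CPM. Plac1, a gene named for the placenta, went from 100 to 9.31, 4.76 and 4.88 CPM, and Pnliprp2, a pancreatic lipase-related gene, from 87.9 to 5.34, 0.584 and 0.122 CPM.

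Of 14 gonadal factor genes tested between E12.5 and E11.5, 3 were called lower, 1 higher and 10 were not called. Gadd45g went from 908 CPM to 198 CPM at E12.5, a log2 ratio of -2.20 (-2.24 to -2.16), and stood at 127 and 130 CPM at the later stages. Nr0b1 was at 75.6, 25.5, 16.8 and 24.4 CPM over the 4 stages. Dmrt1, of the ovary list, and Cst9, of the testis list, were called lower as well. Dmrt1 was at 30, 8.52, 3.46 and 1.59 CPM, and Cst9 at 59.1, 11.6, 6.56 and 5.49 CPM. Nr2f1, an orphan receptor gene of the factor list not called at E11.5 against the other somatic cells, was at 38.3 and 10.6 CPM. Map3k4, a kinase gene that acts upstream of Sry together with Gadd45g, was the 1 member of the gonadal factor list called higher at E12.5, at 12.6 and 35.8 CPM.

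The genes of the rule itself, other than Irx3, were within 2-fold at every stage. Fst was at 275, 279, 351 and 230 CPM, Wnt4 at 298, 262, 284 and 196 CPM, Wnt6 at 580, 456, 533 and 574 CPM and Runx1 at 108, 105, 87.4 and 107 CPM, which the choice of cells by these genes bears on. Irx3 was at 64.5, 311, 407 and 381 CPM. Its share of cells with a UMI was 36.4% at E11.5 and 78.7% at E12.5 without thinning, and 21.1% and 61.2% in thinned cells. Among the pre-granulosa genes, Gng13, a G protein subunit gene, went from 123 to 433, 795 and 1123 CPM, and Lgr5, an R-spondin receptor, from 6.81 to 21.9, 37.9 and 62.4 CPM. Cdkn1b went from 78.4 to 170 CPM at E12.5. Kitl went from 234 to 409 CPM, which is below the 2-fold limit. Foxl2 stayed near absence by these counts, at 0.123, 0.137, 0.269 and 0.244 CPM.

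WNT target genes made up part of the genes higher at E12.5. Of 5 tested, 3 were called higher and 0 lower, with a median log2 ratio of 1.32. Axin2 was at 15.1, 38, 50.9 and 76.5 CPM over the 4 stages, Nkd1 at 29.5, 77, 109 and 118 CPM, and Sp5, a transcription factor that WNT signalling induces, at 41.4, 103, 105 and 86 CPM. The summed level of the 15 genes was 197 CPM in members and 350 CPM a day later. Lef1, a nuclear partner of β-catenin, was at 72.9 and 78.1 CPM and was not called.

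Structural genes made up part of what was higher at E12.5. Of 21 epithelial and basement membrane genes 11 were tested and 3 were called higher: Cdh2, which encodes N-cadherin, at 26.3 and 63.1 CPM, Tjp1, a tight-junction protein gene, at 16.8 and 41.1 CPM, and Col4a1, a basement membrane collagen gene, at 17.1 and 40.7 CPM. At E11.5, Col4a1 was called lower in members than in the other somatic cells, at 17.1 against 40.2 CPM, together with Col4a2, Nid1, Nid2 and Snai2. Neither collagen gene was called lower against the mesothelial-type or the interstitial-type cells. Snai2 and Nid2 were called lower against both types, and Nid1 against the interstitial-type cells. The Col4a1 log2 ratio to the other somatic cells, -1.23, lay between -1.35 and -0.33 over the alternatives of processing. The 10 genes with the highest ratio were Adamts19, S100a8, Sorbs2, Hist1h1e, Hist1h1b, Pam, Alcam, Hmcn1, Ets1 and Lrrn1. S100a8, the neutrophil gene, went from 1.84 to 20.4 CPM, but 10 cells held 97.3% of its UMIs at E12.5 and 1.17% of the cells had one. Adamts19, a secreted metalloprotease gene, went from 1.2 to 28.9, 48.6 and 49.8 CPM, and Sorbs2, a cytoskeletal adaptor gene, from 4.26 to 42.8, 113 and 113 CPM. Alcam, an adhesion molecule gene, was at 9.48 and 44.7 CPM, after 66.3 CPM in the other somatic cells of E11.5. Hmcn1, which encodes a matrix protein, was at 10.5 and 48.1 CPM.

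**Figure D5:**
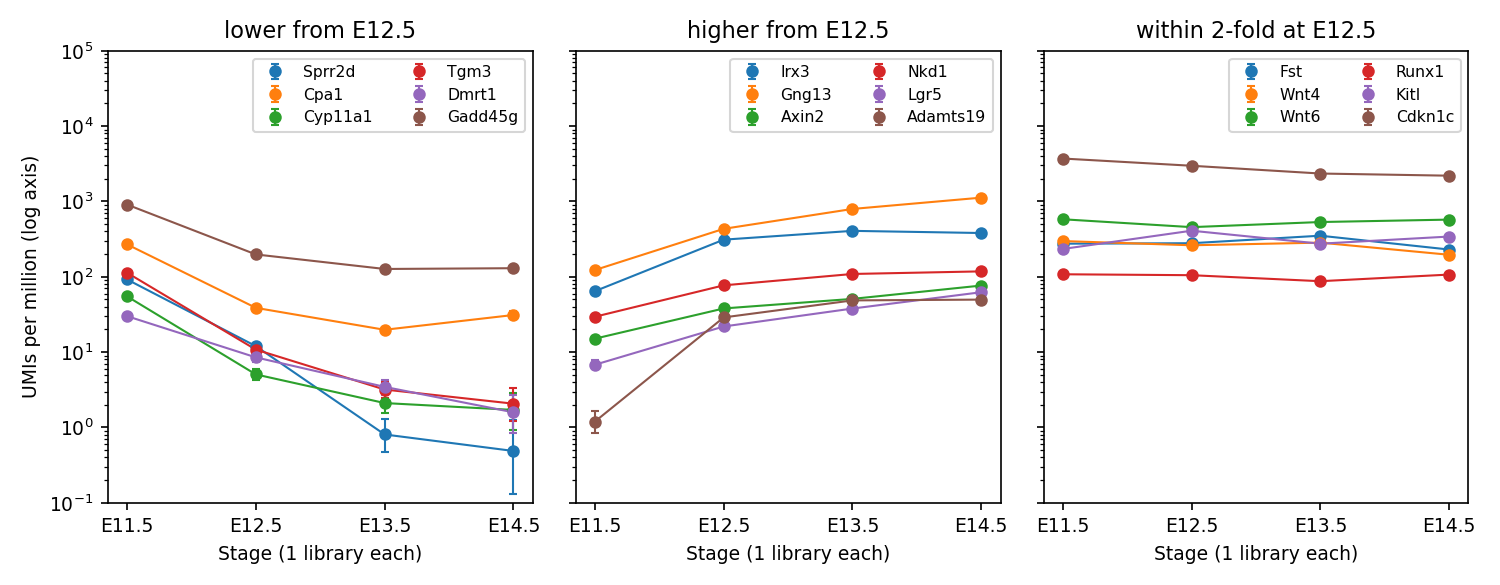
Level of 18 genes (vertical axis, CPM, log scale, with exact Poisson 95% intervals as bars) in cells of the same rule at 4 stages, 1 library each. Sprr2d and Cyp11a1 go from 92.1 and 54.9 CPM to 12 and 5.06 CPM at E12.5, Irx3 from 64.5 to 311 CPM, and Fst stays between 230 and 351 CPM.

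No cell cycle gene of the G2 list changed by the 2-fold rule at E12.5: of 20 G2 and mitosis genes 12 were tested between E12.5 and E11.5 and 0 were called, with summed levels of 587 and 598 CPM. At E13.5, 6 of 10 tested were called lower than at E11.5, with a summed level of 318 CPM. Over all 5872 genes tested between E13.5 and E11.5, 232 were called lower and 183 higher. The stress genes induced by dissociation showed 1 call in each direction at E12.5 out of 6 tested. Egr1, an immediate early factor, was at 67.4 and 187 CPM and Hspa1a, a heat shock protein gene, at 38.3 and 5.44 CPM, and their part in the other differences between the libraries was not tested. Between members and the pooled other somatic cells of the same library the stress list had 0 calls among 6 tested genes. Against the mesothelial-type cells 2 of 6 were called higher in members, Junb and Hspa1a. Against the interstitial-type cells Hspa1a was called higher and Egr1 lower.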

How the data were processed

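Single gonad cells of 4 libraries, 1 per stage, were compared. The authors deposited natural log values per gene and cell, and the submitters' processing notes name Cell Ranger 2.2.0 and the mm10 build. Each deposited natural log value equals ln(1 + UMIs of the gene divided by the UMIs of the cell, times 10000), which the values themselves show: every value was a whole multiple of 1 UMI at a relative tolerance of 1e-06, so UMI counts were recovered for 19321 genes in 19387 cells. Counts had been planned for, and the recovered counts were used in their place. Which filters on cells were applied before deposit is not given in the sources used here.

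The rule for members was applied to the deposited values. UMIs were summed per group, and intervals are exact Poisson for levels, exact binomial for ratios and Clopper-Pearson for shares, all at 95% and covering counting error only. No p-value was computed. Shares of cells used 5000 UMIs per cell drawn at random, a depth every cell reached. Doublets were called with Scrublet in scanpy 1.11.5 and kept, and called 2.64% of the E11.5 library. Python 3.11.15, numpy 2.4.6, scipy 1.17.1 and matplotlib 3.10.9 were used, and the call rule was tested on simulated data. Named genes were the members of the gene lists, the 10 highest and 10 lowest against the other somatic cells and between E12.5 and E11.5, and the 10 with the highest smaller ratio to both neighbouring types; rule, Gm, Rik and mitochondrial genes were left out of the ranking. The members and the lists were chosen with earlier results of these data known. A few genes of these lists and rankings are not reported here, though they stay in the counts.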

Additional observations from a re-analysis of the deposited data

How the results depend on the processing

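The share of E11.5 cells that are early supporting cells was 44%, and 51.5% with at least 2 marker genes, 29% with at least 4, 32.2% with no germ cell gene and 28% with cells thinned to 5000 UMIs before the rule. With a fold of 1.5, of 4, or no CPM minimum, in that order, the called genes numbered 1773, 289 and 3135 against the other somatic cells (934 as reported), 2161, 386 and 3002 against mesothelial-type cells (1153) and 2228, 528 and 3052 against interstitial-type cells (1277). Between E12.5 and E11.5 they numbered 1032, 41 and 1039 (242 as reported). That last split, 123 higher and 119 lower as reported, was 12 and 29 at a fold of 4, and 637 and 402 with no CPM minimum. The other 25 alternatives for the share and the counts stayed within their limits, median-of-ratios scaling and removal of called doublets among them. Ratios to the other somatic cells changed direction on the log2 scale for Ppbp with at least 4 marker genes (-5.20), for Cldn5 (1.00) and S100a8 (0.02) without endothelial and immune cells, for Hba-a1 (-3.24) and Hbb-y (-3.16) with erythroid cells kept, and for Hba-a1 (-0.06) without members over 5% globin, an alternative chosen after seeing the data. Pf4 between E12.5 and E11.5 was at 0.82 with at least 4 marker genes. Some ratios that were not called also changed sign, among them Pf4 to the other somatic cells (1.00 to -5.56 with at least 4 marker genes and -0.16 with thinned cells), and Hba-a1 (0.77 to -0.47) and Hbb-y (0.47 to -0.92) between E12.5 and E11.5 without members over 5% globin. Where no count above shows the cause, the cause was not tested. No paired analysis was possible because each stage has 1 library. Depth limits genes below 20 CPM, and the single library per stage limits every comparison.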
